A study of Mus musculus with 217 samples.

Results

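The splicing factor and hnRNP genes were followed across single chondrocytes of the mouse growth plate. Members were all genes of the deposited table whose symbol begins with Srsf, Hnrnp, Sf3, Snrp, Prpf, U2af, Rbmx or Rbm followed by a digit, with Arglu1 added by name, which gave 96 of 9739 genes. They comprised 10 SR proteins, 19 hnRNPs, 8 SF3A and SF3B subunits, 2 U2AF genes, 11 snRNP proteins, 12 Prpf proteins, 33 Rbm proteins and Arglu1. Hnrnpd, Snrpn and U2af2 were not analysed here.

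The cells came from microdissected tibial growth plates taken on postnatal day 7 from C57/BL mice of wild-type genotype, with no treatment and no second genotype in the labels. Full-length cDNA was made from the polyA RNA of each cell, and the 217 columns carry the same labels. No animal, litter or plate is named, so the cells were treated as 1 sample of 1 group, no test was possible, and every correlation below is a description across cells of that sample. Values are on a log2 scale of unstated unit, and since division by transcript length is not given in the sources used here, levels are compared between cells and not between genes.

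Columns that correlated with each other at r above 0.95 (52 columns in 23 sets) were taken as repeats of a cell, which no label states, and were averaged, which removed 29 of the 217 columns, and the mixed column Cell_204 was dropped. Of the remaining profiles, 11 had an Acan level below 5 and were set aside, and the others are the profiles described here. Acan encodes aggrecan, the main proteoglycan of cartilage, and the profiles next to this limit stood at 2.91 outside it and 6.67 inside it. The 15 chondrocyte markers had a median share of 100% of profiles with the gene detected (a back-transformed value of at least 1), although Col2a1 reached 21%. Pecam1 of endothelium was detected in 2.27%, Cd79a of B cells in 2.84% and Tnnt3 of muscle in 4.55%. The macrophage markers Cd68, Lyz2 and Csf1r were detected in 15.3%, 6.25% and 4.55%. Of the osteoblast markers, Col1a2 was detected in 88.6%, Sp7 in 45.5%, Ibsp in 21%, Bglap in 14.2% and Col1a1 in 13.6%. Sp7 and Ibsp were also listed as markers of prehypertrophic and hypertrophic chondrocytes. A profile held 1326 to 4994 detected genes (median 3463.5). Sequencing depth is unknown because the values were scaled before deposit.

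Splicing removes introns from pre-mRNA in the spliceosome, a machine built from small nuclear ribonucleoproteins (snRNPs). U1 and U2AF recognise the ends of the intron, U2 with its SF3A and SF3B subunits takes the branch point, and the U4, U5 and U6 particles with the Prpf proteins then form the active complex. SR proteins bind exons and mostly favour their inclusion, hnRNPs coat the pre-mRNA and often oppose it, and many SR and hnRNP genes limit their own mRNA through exons or retained introns that make it unstable. Growth plate cartilage depends on this machinery: human SF3B4 and SNRPB are mutated in syndromes with malformed limbs and ribs.

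Hypertrophic chondrocytes are the enlarged cells at the end of the growth plate sequence, and Col10a1 encodes their collagen. Its level ran from 0 to 14.62 (median 7.59), and it was below 1 in 39 profiles, 1 to under 8 in 55 and at least 8 in 82, which are all the profiles used. These ranges are parts of a continuous level and not cell types: 32 profiles lay within 1 of the limit of 8. The number of genes detected moved with Col10a1 (rho = 0.33), with medians of 3025, 3518 and 3557 genes in the 3 ranges. Each gene was therefore related to Col10a1 by a partial Spearman correlation that holds the number of genes detected fixed, and a gene was called when this partial rho was at least 0.2 or at most -0.2. Because Arglu1 and the list were proposed with results of these data known, the counts below are descriptions.

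Promoter sequences are shown for the 4 members with the lowest partial rho to Col10a1 that have 1 window in the RefSeq promoter table (GRCm38.p6) and, for contrast, for Snrpe, the highest of the widely detected members with such a window. Of the 96 members, 80 matched by symbol. Bases run 5′ to 3′ up to the gene start and stop where an annotated exon begins. Capitals mark matches on either strand to the GC box GGGCGG, the TATA box TATAAA, the CCAAT box CCAAT or the ETS motif CCGGAAG.
Srsf2, chr11:116853095-116853294, minus strand: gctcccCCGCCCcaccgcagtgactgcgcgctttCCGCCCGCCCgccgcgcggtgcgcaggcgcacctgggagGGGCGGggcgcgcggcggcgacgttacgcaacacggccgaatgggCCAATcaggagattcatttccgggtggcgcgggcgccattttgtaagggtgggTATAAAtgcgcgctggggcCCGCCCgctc
Hnrnpa0, chr13:58128557-58128806, minus strand: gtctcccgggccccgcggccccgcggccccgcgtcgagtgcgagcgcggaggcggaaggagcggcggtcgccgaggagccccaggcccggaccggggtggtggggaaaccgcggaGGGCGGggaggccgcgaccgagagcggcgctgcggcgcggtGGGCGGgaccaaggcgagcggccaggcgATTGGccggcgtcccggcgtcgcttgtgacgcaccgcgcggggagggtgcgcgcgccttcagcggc
Hnrnpu, chr1:178337816-178338065, minus strand: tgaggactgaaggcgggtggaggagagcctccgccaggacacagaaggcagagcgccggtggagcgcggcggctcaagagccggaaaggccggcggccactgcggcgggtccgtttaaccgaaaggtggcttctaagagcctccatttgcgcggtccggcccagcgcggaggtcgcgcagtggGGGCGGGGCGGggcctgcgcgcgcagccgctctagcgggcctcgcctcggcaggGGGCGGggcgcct
Rbm26, chr14:105177328-105177564, minus strand: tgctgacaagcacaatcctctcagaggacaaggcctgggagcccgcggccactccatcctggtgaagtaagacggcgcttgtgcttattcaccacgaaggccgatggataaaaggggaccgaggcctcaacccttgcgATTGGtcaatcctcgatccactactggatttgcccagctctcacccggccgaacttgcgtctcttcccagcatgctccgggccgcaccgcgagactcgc
Snrpe, chr1:133610292-133610410, minus strand: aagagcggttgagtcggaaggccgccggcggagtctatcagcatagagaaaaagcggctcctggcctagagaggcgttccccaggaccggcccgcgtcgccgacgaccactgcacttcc
None of the 4 motifs was found in all 5 sequences. Srsf2 held 5 GC boxes of which a pair overlaps, 1 CCAAT box and 1 TATA box, Hnrnpa0 held 2 GC boxes and 1 CCAAT box, Hnrnpu held 3 GC boxes of which a pair overlaps, Rbm26 held 1 CCAAT box, and Snrpe held none of the 4 motifs. Over the full windows of 80 members, the TATA box was present in 13.8%, against 6.89% of the 7316 matched genes of the table and 14.2% of all 27025 promoters. The CCAAT box was present in 52.5%, 39.2% and 37.9%, the GC box in 57.5%, 66.9% and 35.9%, and the ETS motif in 25% of members, 20.2% of matched genes and 9.12% of all promoters. These are matches of letters in a window and not sites of binding.

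Most members were unrelated to Col10a1, and a small set of well detected genes was lower where Col10a1 was high. The median partial rho over the 96 members was -0.03, against 0.003 over all 9739 genes. Of the members, 34 were above 0 and 62 below, whereas 51.4% of all genes were above 0. The call limit of 0.2 was set for this description and is no test. A partial rho of at most -0.2 was found for 9 members (9.38%), against 3.29% of all genes, and one of at least 0.2 for 1 member, against 3.79%. Without Arglu1, which was added by name with its result known, 8 of 95 members (8.42%) were called lower. Detection differed between the lists, however: 53 of the 96 members were detected in at least 50% of profiles, against 28.3% of all genes. Among genes so detected, 38 of 53 members and 51.1% of all genes lay below 0. The lower call was met by 8 of 53 members (15.1%), Arglu1 among them, and by 8.18% of 2752 genes. The higher call was met by 0 members and 7.01% of genes.

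**Figure D1:**
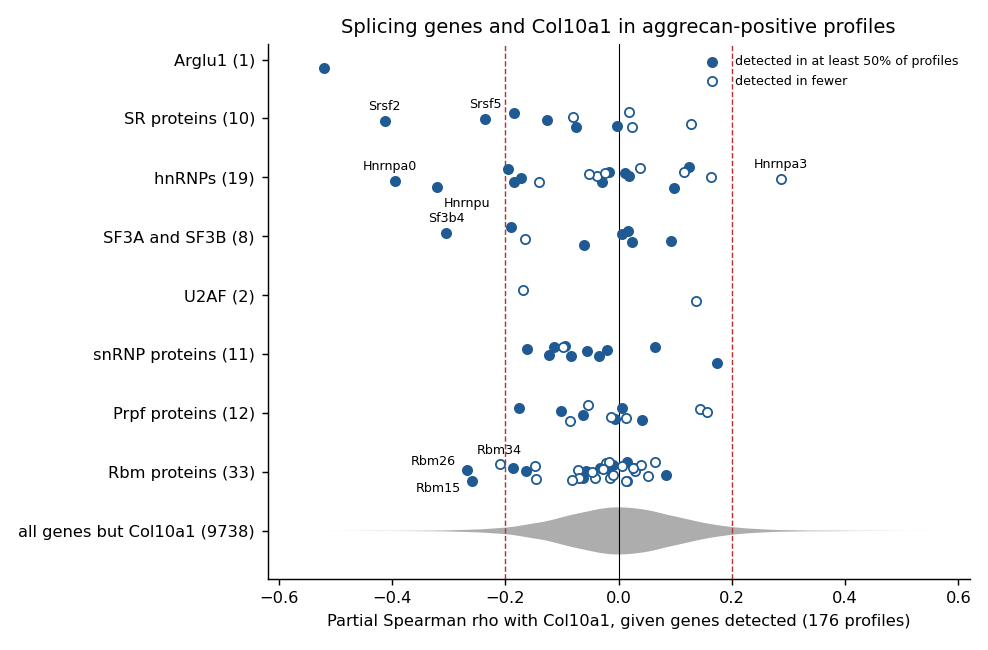
Partial Spearman rho of each member with Col10a1, given genes detected, by role (number of genes in brackets), with the spread of all genes but Col10a1 in grey at the bottom. Dashed lines mark -0.2 and 0.2. Arglu1 stands at -0.52, 9 members lie at or left of the lower line and Hnrnpa3 alone at or right of the upper one.

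Arglu1, which encodes an arginine and glutamate rich protein that binds the Mediator complex and alters splicing, had the lowest partial rho to Col10a1 of all 9739 genes (-0.52). Its gene lies at chromosome 8, 8665075 to 8690521, on the minus strand of mm10 (GENCODE M21). Arglu1 was detected in all 39 profiles with Col10a1 below 1 (levels 3.38 to 9.38, median 7.30), in 53 of 55 in the middle range (0 to 8.56, median 6.76) and in 70 of 82 with Col10a1 of at least 8 (0 to 8.95, median 5.46). The ranges overlapped, but low values gathered at one end. Of the 14 profiles without detected Arglu1, 12 had Col10a1 of at least 8, and none was below 3.05. These 14 held a median of 3530 detected genes, close to the median of all profiles. The mean was 7.23 ± 1.07 (SD, n = 39 profiles) with Col10a1 below 1 and 4.72 ± 2.44 (n = 82) with Col10a1 of at least 8, a difference of -2.51.

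The relation of Arglu1 was of similar size at different numbers of genes detected. It was -0.49, -0.50 and -0.54 within the 58, 59 and 59 profiles with the fewest, middle and most genes detected, and -0.40 within the 55 and 82 profiles of the upper 2 ranges, those with Col10a1 detected. Arglu1 was lower with Ibsp too, a gene of mineralising matrix (partial rho -0.33), and less so with Ihh, the hedgehog ligand of prehypertrophic cells (-0.15). It was higher with the resting genes Sfrp5 (0.30) and Ucma (0.22).

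Among the 10 SR proteins, Srsf2 and Srsf5 were called lower with Col10a1 (20%), against 3.29% of all genes. Of genes detected in at least 50% of profiles, 8.18% were called lower, and a share over 10 genes is coarse. Srsf2 is a classical exon-binding SR protein of nuclear speckles (chromosome 11, 116849901 to 116853094, minus strand). Its level was 4.61 to 11.35 (median 9.34) with Col10a1 below 1, 2.80 to 10.79 (9.09) in the middle range and 0 to 10.60 (7.88) at 8 or more. The medians thus stepped down while the ranges overlapped almost throughout. The partial rho of Srsf2 was -0.41, the 11th lowest of all genes, and within the 3 bins of genes detected it was -0.36, -0.50 and -0.38. Its exons overlap those of Mettl23 and Mfsd11 on the other strand, and the authors' use of strand is not given in the sources used here. Mettl23 itself had a partial rho of 0.11 and Mfsd11 of -0.04.

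Srsf5, another SR protein, was detected in 29 of 39, 36 of 55 and 42 of 82 profiles in the 3 ranges, with medians of 2.89, 2.52 and 1.10. Its partial rho of -0.24 was -0.11 within the profiles with Col10a1 detected, where it was no longer called. Within the 3 bins of genes detected it was -0.44, -0.14 and -0.11, so the call was met in the lowest bin alone. Of its 50-base runs, 27.9% also occur in a pseudogene, so its values are less certain. The other SR proteins were closer to 0: Srsf7 (-0.19) and Srsf3 (-0.07), which also take part in mRNA export, Srsf6 (-0.002) and Srsf11 (0.02). Srsf1, the founding SR protein, was detected in 10 profiles (5.68%, exact 95% interval 2.76 to 10.2%, counting error only), never above 4.16, and Srsf12 in 5 (2.84%). None of the 50-base runs of the longest Srsf1 coding transcript occurs in another gene. A value of 0 can be a failed estimate, so the low share of Srsf1 does not show that the cells lack it.

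**Figure D2:**
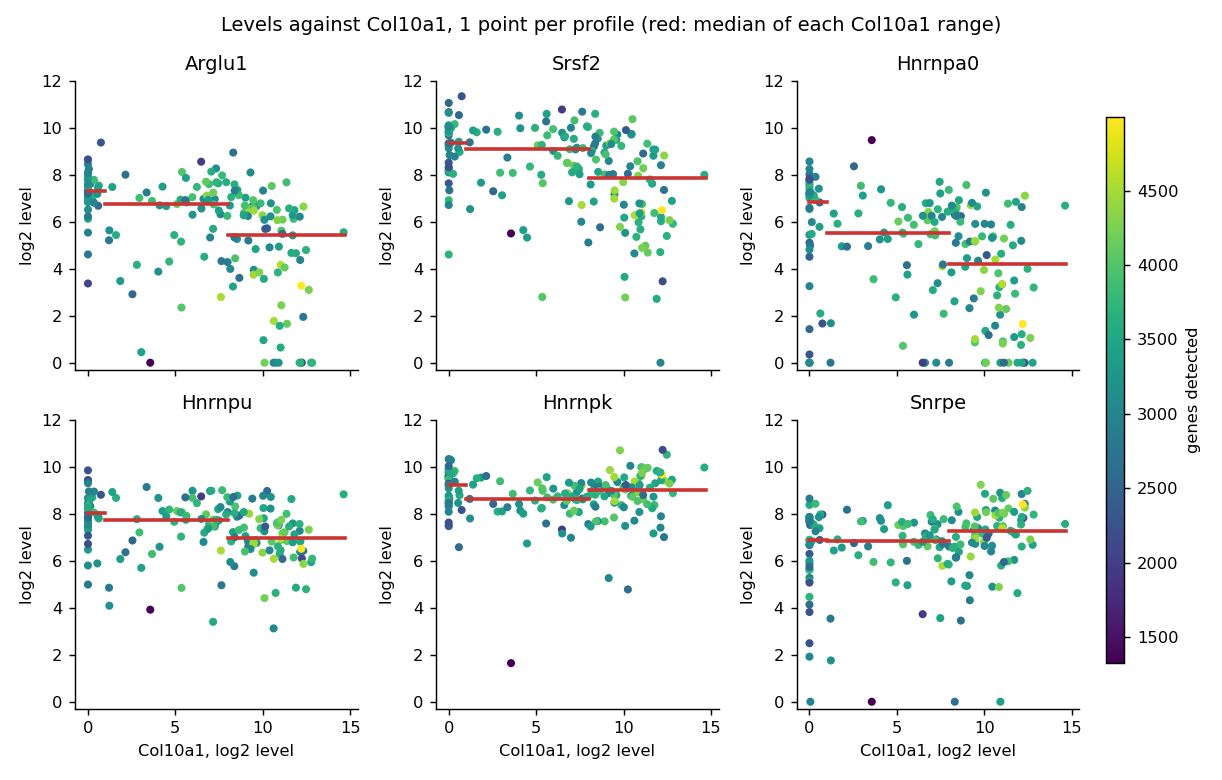
Log2 level of 6 members (y axis) against the log2 level of Col10a1 (x axis), 1 point per profile, coloured by genes detected, with the median of each Col10a1 range in red. The medians of Arglu1, Srsf2, Hnrnpa0 and Hnrnpu are lower at Col10a1 of 8 or more than below 1. The medians below 1 and at 8 or more are 9.23 and 9.01 for Hnrnpk and 6.89 and 7.29 for Snrpe.

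Among the 19 hnRNPs, Hnrnpa0 and Hnrnpu were called lower (10.5%) and 1 rarely detected gene higher (5.26%), against 3.29% and 3.79% of all genes. Of genes detected in at least 50% of profiles, 8.18% were called lower. Hnrnpa0 binds AU-rich elements of mRNA (chromosome 13, 58125879 to 58128556, minus strand). It was detected in 34 of 39, 49 of 55 and 68 of 82 profiles of the 3 ranges, with levels of 0 to 8.57 (median 6.83), 0 to 9.48 (5.54) and 0 to 7.57 (4.22). Its share detected therefore differed little while the level in the middle of the distribution was lower. The partial rho was -0.39 overall and -0.26, -0.47 and -0.43 within the 3 bins of genes detected.

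Hnrnpu, also called scaffold attachment factor A, organises chromatin and supports the maturation of the U2 particle (chromosome 1, 178321108 to 178337797, minus strand). It was detected in every profile. Levels were 4.99 to 9.86 (median 8.05) with Col10a1 below 1, 3.41 to 9.15 (7.76) in the middle range and 3.12 to 8.98 (6.98) at 8 or more. Means were 7.97 ± 1.01 (SD, n = 39) and 7.03 ± 1.08 (n = 82) at the 2 ends, a difference smaller than either SD. The partial rho was -0.32, with -0.39, -0.14 and -0.46 in the 3 bins. The exons of Hnrnpu overlap those of Cox20 on the other strand, which had a partial rho of 0.02.

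The other hnRNPs detected in at least 50% of profiles were not called. On the lower side, short of the limit, were Hnrnpab (-0.19, mean difference -0.69) and Hnrnph2 (-0.19, mean difference -1.13), both named after their values were seen, and Hnrnpc, which binds U tracts (-0.17). Hnrnpk, which binds C-rich RNA and DNA, was also detected in every profile and had a partial rho of 0.01, with medians of 9.23, 8.64 and 9.01. Its value depended on the profiles used: it was 0.27 within the profiles with Col10a1 detected, where it was called higher, and -0.22, 0.07 and 0.17 in the 3 bins of genes detected. Hnrnpa2b1 (0.02) and Hnrnpa1 (-0.03), the best known silencers of exons, were near 0. Hnrnpdl (0.12), Hnrnpll (0.11), known from CD45 splicing in lymphocytes, and Hnrnpl (0.10), which binds CA repeats, were among the 8 highest of the members detected in at least 20% of profiles. Hnrnpa3 was called higher (0.29), but it was detected in 6 profiles (3.41%, interval 1.26 to 7.27%), 5 of them with Col10a1 of at least 8. The relation thus rests on few profiles with detected values, and 28.2% of its 50-base runs occur in other genes, 41 of which are pseudogenes. Hnrnpa1 shares 46.4% of its runs with other genes, and Hnrnpk 34.5%.

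Of the branch point machinery, Sf3b4 was called lower, 1 of 8 SF3A and SF3B subunits (12.5%). Of all genes 3.29% were called lower, and of those detected in at least 50% of profiles 8.18%. Sf3b4, an SF3B subunit that contacts the pre-mRNA beside the branch point, was detected in 33 of 39, 37 of 55 and 48 of 82 profiles of the 3 ranges (84.6%, 67.3% and 58.5%), with medians of 4.73, 3.62 and 2.10. Its partial rho was -0.30, and -0.31, -0.31 and -0.29 within the 3 bins of genes detected, but -0.18 within the profiles with Col10a1 detected, where it was not called. Of its 50-base runs, 49.3% also occur in a pseudogene. Of the SF3A subunits, named after their values were seen, Sf3a3 (-0.19, detected in 72.2%, mean difference -0.79), Sf3a2 (-0.17, detected in 7.95%) and Sf3a1 (-0.06) lay on the same side and were not called. Of the other SF3B subunits, Sf3b1, the large scaffold (0.02, detected in 97.2%), Sf3b2 (0.01) and Sf3b3 (0.02) were near 0. Sf3b5 was at 0.09, but at -0.22, 0.17 and 0.40 within the 3 bins of genes detected, so its sign was not kept. U2af1, which reads the end of the intron, had a partial rho of -0.17 and its relative U2af1l4 one of 0.14, and U2af1 was detected in 36.4% of profiles and shares 59.4% of its runs with other genes.

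The snRNP proteins were the most widely detected role and held no called member. Over all genes, 3.29% were called lower and 3.79% higher, and 8.18% and 7.01% of genes detected in at least 50% of profiles. For 11 genes, a lack of calls is close to these shares. Their median share of profiles was 92.6%, against 55.7% for SR proteins, 53.4% for hnRNPs, 69.6% for SF3A and SF3B, 46.3% for Prpf and 33% for Rbm proteins. All 7 measured Sm core proteins, which form the ring around each small nuclear RNA, were detected in at least 89.2%. Of the 11 snRNP proteins, 9 lay below 0, with a median of -0.08. Snrpb, of the Sm ring, was at -0.16. Snrpe, also of the ring, had the highest partial rho of the members detected in at least 20% of profiles, 0.17, with medians of 6.89, 6.84 and 7.29 and a mean difference of 0.58 between the ends. Within the 3 bins of genes detected its partial rho was 0.19, -0.13 and 0.45, so the sign was not kept. Snrpe shares 20.8% of its runs with pseudogenes.

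No Prpf gene was called, which for 12 genes is again close to the shares over all genes. Prpf8, the core protein of the U5 particle, was at 0.01 with detection in 69.3%. Prpf6, which bridges U5 and U4/U6, was detected in 13 of 39, 16 of 55 and 46 of 82 profiles (33.3%, 29.1% and 56.1%). Its rho was 0.26 with nothing held fixed and 0.16 given genes detected, with -0.07, 0.14 and 0.34 in the 3 bins of genes detected. It was also the named member that went most closely with the number of genes detected (rho = 0.37). Prpf38a, which joins the complex before activation, was at -0.10.

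Among 33 Rbm genes, Rbm26, Rbm15 and Rbm34 were called lower (9.09%), against 3.29% of all genes. Of the 33, 12 were detected in at least 50% of profiles, and of all genes so detected 8.18% were called lower. Rbm26, linked to decay of nuclear polyadenylated RNA, had medians of 6.88, 6.01 and 5.67 in the 3 ranges (0 to 9.25 over all profiles) and a partial rho of -0.27. Its values differed between averaged columns by an SD of 1.05, the largest among the members detected in at least 50% of profiles, and its exons overlap Gm17066 on the same strand. Rbm15, which guides the enzyme complex for m6A marks on RNA, had medians of 2.92, 2.21 and 1.49 and a partial rho of -0.26. With the 11 profiles of low Acan included, Rbm26 was at -0.16 and Rbm15 at -0.18 and neither was called. Within the 3 bins of genes detected, Rbm26 was at -0.12, -0.29 and -0.42 and Rbm15 at -0.17, -0.16 and -0.39, so Rbm26 was not called in the lowest bin and Rbm15 in the highest alone. Rbm34, outside the rule for named genes and chosen after its value was seen, was at -0.21 with detection in 32.4%, and at -0.14, -0.36 and -0.11 in the bins.

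No other Rbm gene was called, but more of the 33 lay below 0 (22) than above it (11), with a median of -0.02. Rbm25 (-0.19), which regulates splice site choice, and Rbm39 (-0.16), a relative of U2AF, were on the lower side. Rbm17 (0.08), a factor for alternative 3′ splice sites, was on the upper side. Rbm5 was at -0.03, and Rbm8a, a core protein of the exon junction complex, at 0.02. Rbm3, which is induced by mild cold, was detected in 98.9% and was at -0.02. It also had the smallest SD between profiles of the widely detected members, 0.99. Rbmx was detected in 14 profiles (7.95%) and Rbm38 in 5 (2.84%).

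Some of the members called lower with Col10a1 also went with each other: 19 of their 36 pairs had a partial rho of at least 0.2, given genes detected, and Srsf5 and Rbm34 had little part in this. Given genes detected, the partial rho of Arglu1 was 0.46 with Rbm26, 0.46 with Hnrnpu, 0.46 with Srsf2, 0.41 with Rbm15, 0.33 with Hnrnpa0 and 0.33 with Sf3b4, then 0.28 with Srsf5 and 0.04 with Rbm34. With Col10a1 held fixed as well, these values were 0.39, 0.36, 0.31, 0.34, 0.16 and 0.21, then 0.19 for Srsf5 and -0.08 for Rbm34. Besides Arglu1, Srsf5 reached 0.2 with Hnrnpu alone (0.22) and was between -0.02 and 0.09 with the other 6. The closest pair apart from Arglu1 was Rbm15 with Rbm26, at 0.45 and 0.41. Fewer pairs reached 0.2 with Col10a1 held fixed as well. Apart from those of Arglu1 and that of Rbm15 with Rbm26, these were Srsf2 with Rbm26 (0.34), Srsf2 with Rbm15 (0.23) and Hnrnpu with Rbm26 (0.28). So the link of Arglu1 with Rbm26, Hnrnpu, Rbm15 and Srsf2 was mostly kept at a given Col10a1 level, and that with Hnrnpa0 was smaller. These members were chosen by a shared relation, and the pairs share cells and depth.

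**Figure D3:**
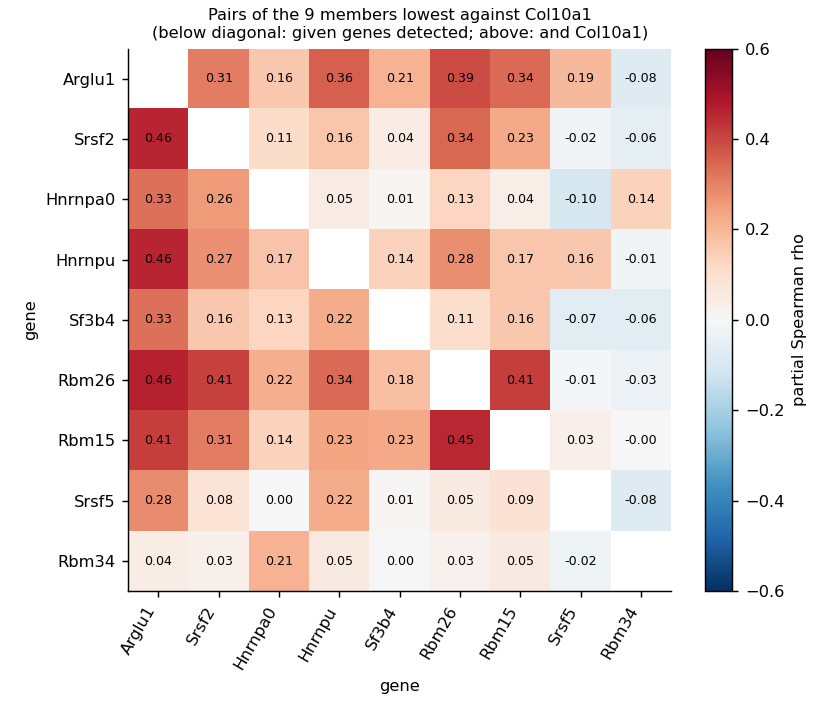
Partial Spearman rho of each pair of the 9 members called lower with Col10a1, given genes detected (below the diagonal) and given genes detected and Col10a1 (above it). Arglu1 pairs reach 0.46 below the diagonal and 0.39 above it, and below the diagonal Srsf5 reaches 0.2 with Arglu1 and Hnrnpu alone, and Rbm34 with Hnrnpa0 alone (0.21).

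As a whole the members varied with little in common beyond the number of genes detected. Over 1378 pairs of the 53 members detected in at least 50% of profiles, the median partial rho was 0.02 and 2.98% of pairs reached 0.2, against a median of 0.006 and 1.84% over 3785376 pairs of all genes so detected. Some pairs ran in opposite directions, such as Rbm15 with Hnrnpk (-0.35). The rho with the number of genes detected was at least 0.2 for 17 members (17.7%), against 27% of all genes, and at most -0.2 for 2, Srsf2 (-0.21) and Rbm26 (-0.27), against 0.185%. Both of these are among the members called lower with Col10a1.

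A member score, the mean z over all 96 genes, had a partial rho of -0.26 with Col10a1, and of -0.23 without Arglu1. With nothing held fixed its rho was -0.003. The score followed the number of genes detected (rho = 0.59), which was itself higher with Col10a1. Within the profiles with Col10a1 detected the partial rho of the score was -0.05, while Arglu1, Srsf2, Hnrnpa0 and Hnrnpu were called there too. By role the partial rho was -0.24 for SR proteins, -0.20 for SF3A and SF3B, -0.18 for snRNP proteins, -0.14 for Rbm proteins, -0.08 for hnRNPs and 0.03 for Prpf proteins. Like scores of the other splicing genes, ribosomal protein genes and proteasome genes described below had -0.12, -0.02 and 0.25 with Col10a1. With 8 genes of dividing cells the member score stood at 0.22, and the score of the other splicing genes also at 0.22. The median share of profiles with these 8 genes detected was 9.66%. With Ihh, Ibsp, Ucma and Sfrp5 the member score stood at -0.07, 0.02, 0.11 and 0.09. With 15 immediate-early genes, which respond to dissociation and were themselves higher with Col10a1 (partial rho 0.21), it stood at 0.05. With their score held fixed as well, the partial rho was -0.51 for Arglu1 and -0.28 for the member score.

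The spread of single members between profiles is given beside that between the averaged columns. Those columns were chosen for their likeness (r above 0.95), so a small SD between them follows from the choice and supports nothing. For the 53 members detected in at least 50% of profiles, the SD between profiles was 0.99 to 3.07 and the pooled SD between averaged columns 0.13 to 1.05. The ratio had a median of 5.42, close to the 5.69 of all genes so detected. It was highest for Prpf38a (16.3), Sf3b1 (13.9), Rbm17 (11.8), Hnrnpa2b1 (11.4), Sf3b3 (10.4) and Rbm5 (9.73), and lowest for Hnrnpl (1.96). Prpf38a was detected in 60.2% of profiles and at 0 to 8.58. The ratio does not divide technical from biological spread.

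**Figure D4:**
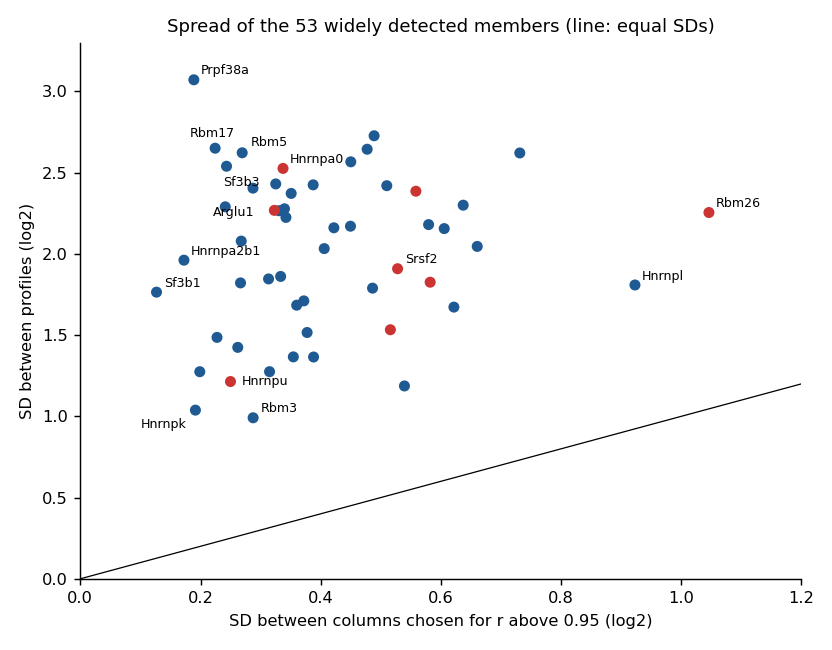
Spread of the 53 members detected in at least 50% of profiles: SD over profiles (y axis) against pooled SD between columns chosen for r above 0.95 (x axis), both on the log2 scale, with members called lower with Col10a1 in red. All points lie above the line of equal SDs, with Prpf38a highest at 3.07 and Rbm26 farthest right at 1.05.

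The other genes of the splicing pathway, from a list with no member in it, had a lower share of calls than the members and than all genes. A partial rho of at most -0.2 was found for 2 of the measured genes (1.69%), Thoc1, of the THO complex of mRNA export (-0.31), and Wbp11, a spliceosome-associated protein (-0.26), and none reached 0.2. The median was -0.01. Over all genes, 3.29% were called lower and 3.79% higher. Among genes detected in at least 50% of profiles, 2 of 61 on this list (3.28%) were called lower, against 8.18% of all genes and 15.1% of members. Next lowest were Srpk1 (-0.20, just short of the limit), the kinase that phosphorylates SR proteins, Magohb of the exon junction complex (-0.17) and Tra2b, an SR-like regulator (-0.16). Highest were the paraspeckle RNA Neat1 (0.18), Snrnp25 of the minor spliceosome (0.17), Dhx16 (0.14), Ptbp3 (0.13) and Ddx17 (0.11), the last 2 detected in under 10% of profiles.

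With detection left aside, the share of members called lower was close to that of ribosomal protein genes and above that of proteasome genes. Of 95 cytosolic ribosomal protein genes, 9 (9.47%) were called lower and 3 higher, with a median of -0.02. Of 37 proteasome subunit genes, none was called lower and 3 higher, with a median of 0.06. Over all genes, 3.29% were called lower and 3.79% higher. The lists are unlike in detection: 53 of 96 members, 83 of 95 ribosomal and 29 of 37 proteasome genes were detected in at least 50% of profiles. Of genes so detected, 8.18% of all genes and 15.1% of members were called lower. No test of these differences was possible with 1 sample. The genes outside the splicing lists most like the member score, among 5213 detected in at least 20% of profiles, were Ncl, which encodes nucleolin (partial rho 0.43 given genes detected), Rdh13 (0.40), Srxn1 (0.37), Cebpz (0.35), Mgp (0.34), Lgals3bp (0.33), Gsto1 (0.32), Cdk4 (0.31), Utp11l (0.31) and Eif4e (0.31). Of these, Ncl had the second lowest partial rho to Col10a1 of all genes, -0.48, after Arglu1.

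In the 11 profiles with Acan below 5, Arglu1 was detected in 9 at 0 to 7.48 (median 4.17) and Srsf2 in all 11 at 2.71 to 7.85 (median 6.32). Hnrnpk was at 8.88 to 11.17 (median 9.75) in the same profiles and Srsf1 at 0 in each.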

How the data were processed

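Per the labels' protocols, polyA RNA of single cells was made into full-length SMARTer cDNA and Nextera XT libraries. TopHat and the build mm10 are named in the submitters' processing notes. Quantifier, annotation and filters: not given in the sources used here. Per the file, the authors deposited values on a log2 scale from 0 to 15.14, 62.3% of them 0, with base 2 and a pseudocount of 1 inferred from back-transformed totals of 394406 to 616257 per cell. Each gene is above 0 in at least 10 columns.

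Profiles, detection and partial correlations were computed as the report states, over all 9739 genes, in Python 3.11.15 (SciPy 1.17.1, NumPy 2.4.6, matplotlib 3.10.9, pandas 2.3.3), and tested on simulated data. No doublet caller was run. Members, lists and tests were chosen with earlier results of these data known. Genes named are the 8 members lowest and 8 highest in partial rho among members whose share detected reached 20%, 6 of highest SD ratio, the 3 detected most and 3 least, fixed names, 5 other splicing genes at each end and the 10 genes most like the score. Positions and 50-base runs (either strand, longest coding transcript, other genes without overlapping exons) come from GENCODE M21.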

Additional observations from a re-analysis of the deposited data

How the results depend on the processing

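The settings tried were 17 planned and 2 chosen after the data were seen (without Arglu1, and without 25 members that share at least 10% of their 50-base runs with other genes). A rho counts as moved when it differs by at least 0.0762, and the cause of a move was not tested.

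The median share detected, 52.3%, was 63.1% with any value above 0 as detected, 28.4% at a limit of 10 and 68.8% over members detected in at least 20% of profiles. The median partial rho of members moved by less than this in every setting, from -0.07 in the lowest bin of genes detected to 0.01 with nothing held fixed, where that of all genes was 0.05. The number called higher, 1, was 2 over all profiles, 4 with nothing held fixed and 6 where Col10a1 was detected. Of all genes, 3.255%, 8.56% and 4.005% were called higher in these settings. It was 0 with a Pearson correlation, with the 20% filter or without members that share runs. In the lowest, middle and highest bins of genes detected it was 5, 5 and 10, where 8.79%, 9.385% and 12.8% of all genes were also called higher. The number called lower, 9, was 18 in each of the 3 bins, where 8.995%, 9.84% and 10.2% of all genes were also called lower and each bin holds 58 or 59 profiles. In the other settings it ran from 6 (Col10a1 detected) to 13 (leaving out the tenth of profiles poorest in genes). Of all genes, 3.06% and 3.93% were called lower in these settings. The score's partial rho of -0.26 was -0.00317 with nothing held fixed, -0.047 where Col10a1 was detected, -0.35 with the 20% filter and -0.18 without members that share runs. No named gene that was called changed sign. Over the 13 settings on all bins, Arglu1 ran from -0.54 to -0.40, Srsf2 from -0.45 to -0.28, Hnrnpa0 from -0.42 to -0.31 and Hnrnpu from -0.35 to -0.23. Srsf5 was not called with nothing held fixed (-0.18) or without the profiles with fewest genes (-0.19), nor was Hnrnpa3 with a Pearson correlation (0.19). The protein features planned for SR and RGG stretches were not run, since no protein sequences were used here. No paired analysis was possible because there is 1 group.

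Animals are not named, so spread between them is unknown, and depth and unit are unknown. Genes with no value in the table could not be described, and low shares cannot be told apart from failed estimates.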
